A study of Mus musculus with 7 samples.

Results

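Wnt signalling genes were followed in follicular dendritic cells (FDCs), the stromal cells that hold antigen for B cells in lymph node follicles. The genes were picked by a rule on their symbols, which uses no measured value but was set with earlier results of these data known. They covered the Wnt ligands, the Frizzled and Lrp5/Lrp6 receptors, the R-spondins, the Dickkopf, Sfrp and Wif1 inhibitors, and a set of named intracellular regulators. Of the 21176 genes in the expression table, 40 met the rule: 10 Wnt ligands, 2 R-spondins, 11 receptors, 7 secreted inhibitors and 10 intracellular components and feedback regulators. Another 15 symbols that the rule covers in the mouse annotation, among them Wnt3a, Rspo2 and Rnf43, had no row in the table used here.

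RNA came from FDCs that had been flow-sorted out of popliteal nodes; the donors were male mice of 8 to 12 weeks that had not been immunized. The groups were wild type (WT, n = 4 samples) and samples labelled Ngfr KO (n = 3), for a knockout of the gene of the p75 neurotrophin receptor, and each sample pooled nodes of several animals. The strain, the knockout allele and whether Ngfr was deleted in all cells are not given in the sources used here. The comparison asks how FDC transcripts differ when Ngfr is lost.

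Wnt proteins are secreted lipid-modified ligands that bind Frizzled receptors. Together with the co-receptors Lrp5 and Lrp6 they stop a cytoplasmic complex built on Axin and Apc from destroying β-catenin, the product of Ctnnb1, which then acts in the nucleus with the TCF/LEF factors. R-spondins strengthen this signal by removing the ligases Znrf3 and Rnf43 that clear Frizzled from the surface, while Sfrp proteins and Wif1 bind Wnt ligands and Dickkopf proteins bind the co-receptors. In lymph nodes, Wnt ligands and R-spondins are mainly known as products of stromal cells.

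Reads recovered from the table numbered 17244925 to 18873542 per WT library and 20741770 to 21538400 per Ngfr KO library, so every Ngfr KO library was deeper (p = 0.0286 by an exact two-sided permutation test, the lowest p 35 splits can give). Ngfr still had 46 to 104 reads in Ngfr KO, with values of 0.377 to 1.30 in WT against 0.184 to 0.353 in Ngfr KO (exact two-sided permutation test, p = 0.0571); the exons behind its remaining reads cannot be read from a value per gene. Mitochondrial transcripts took 5.55% to 7.42% of the reads in WT and 3.14% to 4.97% in Ngfr KO. All 15 FDC markers examined were present; the receptor gene Cr2 had values of 26.5 to 76.6 in WT against 95.5 to 111 in Ngfr KO. Summed over the list, FDC markers came to 1841 to 5158 in WT against 8032 to 10546 in Ngfr KO, and 14 of the 15 rose. All 15 endothelial markers were also present, with sums of 155 to 200 in WT against 36.8 to 68.1 in Ngfr KO, and 13 of the 13 tested by limma fell. Of these, Esam, Robo4 and Emcn were high enough for that test in WT samples alone. Flt1 and Cd34 were too low for it. The mean of Flt1 was 0.504 in WT against 0.183 in Ngfr KO, and that of Cd34 was 0.337 against 0.390. edgeR tested all 15 and called 13 lower. These shifts stand beside all the results below, and their part in them was not tested. In sorted pools, fewer cells of a type and less RNA per cell cannot be told apart.

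In the Ngfr KO samples the ligand gene Wnt11, the inhibitor gene Wif1 and the feedback regulator gene Nkd2 rose, whereas Fzd6, Sfrp1, Tcf7l1, Apc and Ctnnb1 fell. Most Wnt genes were expressed at low levels. A value of 1 in the table corresponds to 230 to 295 reads, and 15 of the 40 genes reached it in at least 3 samples and were tested with limma on log2(value + 1). Of these 15, limma called 8 at a Benjamini-Hochberg adjusted p under 0.05, 3 higher and 5 lower in Ngfr KO, or 53.3% of those tested. Over all 8326 genes tested the share called was 34.2%, with 18.3% higher and 15.8% lower. Of the 8 called, Sfrp1 and Tcf7l1 passed the filter through WT samples alone and Wif1 through Ngfr KO samples alone. The share among the 15 therefore depends in part on the change of these genes themselves. The median log2 change was -0.10 over the 15 genes and 0.02 over all genes tested. No test set the Wnt genes against other genes.

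The other 25 genes were read from edgeR's quasi-likelihood test on the recovered reads, which covered 36 of the 40. It called 8 genes (22.2%), 3 higher and 5 lower, against 15.2% of all 16751 genes tested, with 8.67% higher and 6.55% lower. The calls of both tests shared 6 genes: Wnt11, Nkd2, Fzd6, Sfrp1, Tcf7l1 and Apc. edgeR alone called Sfrp4 higher and Fzd7 lower, both too low for the limma filter. limma alone called Wif1 and Ctnnb1. With the limma filter lowered to a value of 0.1, 15 of 34 Wnt genes were called (44.1%, against 22% of all genes tested that way). Sfrp4 passed that filter through Ngfr KO samples alone. Regardless of any test, the groups did not overlap in 19 of the 40 genes, with Ngfr KO above in 8 and below in 11. Of all listed genes, 25.6% did not overlap, 12.5% with Ngfr KO above and 13.1% with Ngfr KO below.

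**Figure D1:**
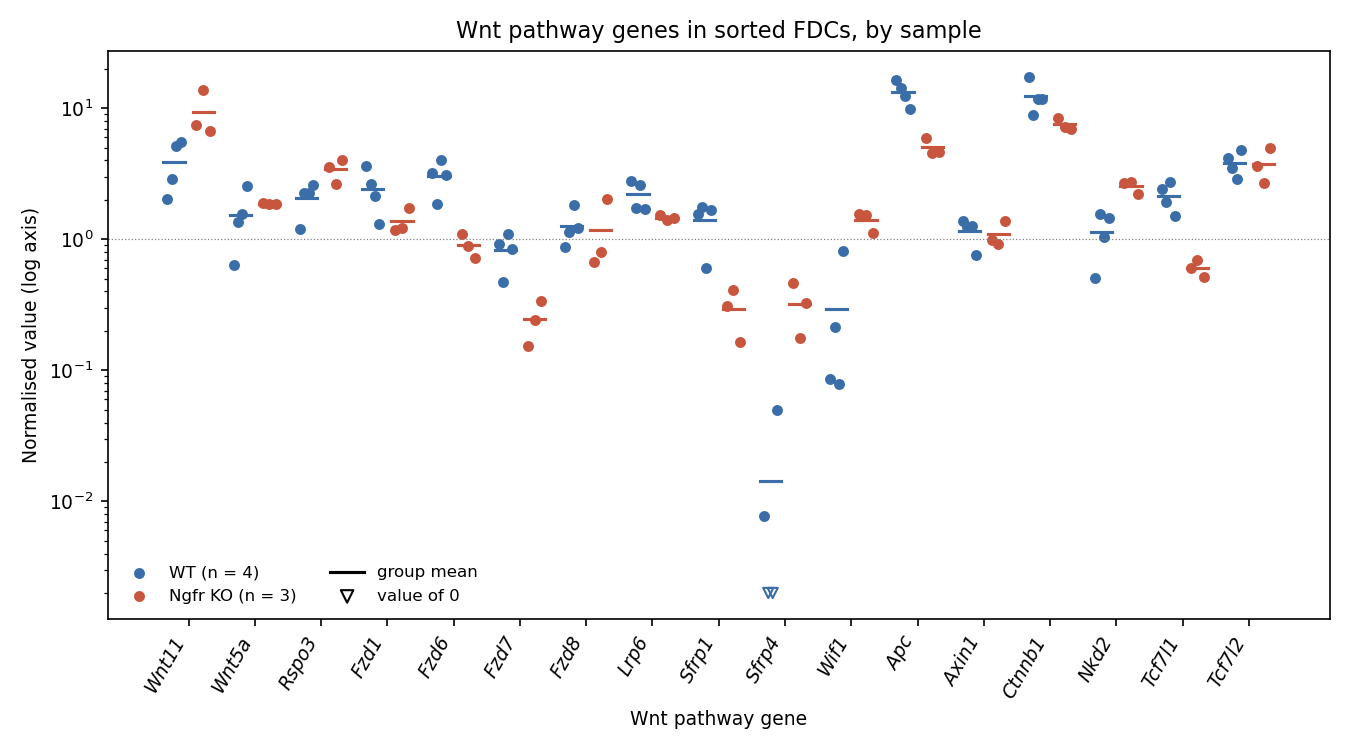
Normalised values (log axis) of the 17 Wnt genes that passed the limma filter or were called by edgeR, with WT samples in blue (n = 4), Ngfr KO samples in red (n = 3), a bar at each group mean and triangles for values of 0. The dotted line marks a value of 1. The groups overlap for Wnt5a, Fzd1, Fzd8, Axin1 and Tcf7l2 and are apart for the rest.

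**Figure D2:**
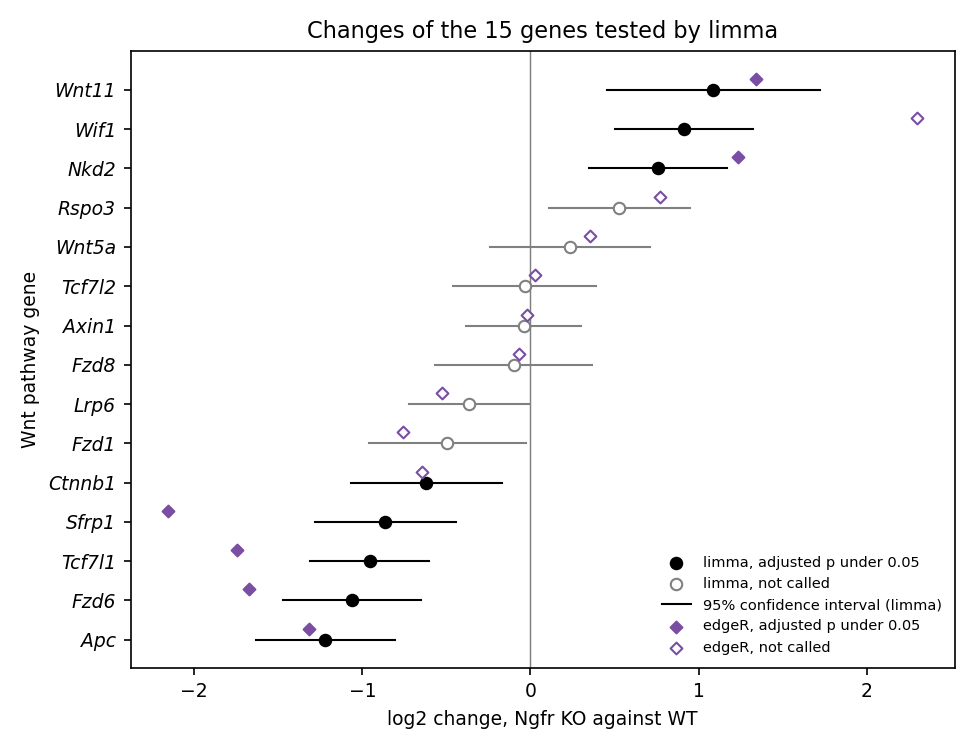
log2 change of Ngfr KO against WT for the 15 Wnt genes tested by limma, with 95% confidence intervals (circles and lines), and the edgeR log2 change from recovered reads (diamonds); filled symbols passed an adjusted p of 0.05. The edgeR changes of the lower genes Wif1, Sfrp1, Tcf7l1 and Fzd6 lie farther from 0, because adding 1 before taking logs understates them.

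The DNA just upstream of the Wnt genes' starts was read for the TCF/LEF recognition word. The letters CTTTG followed by any pair made of A and T were searched on both strands of the 250 bases before each start in the RefSeq promoter table (build GRCm38.p6), which had entries for 25 of the 40 genes. At least 1 match was found in 6 of their 33 promoter entries (18.2%) and in 14.8% of all 32851 entries. Shown are the upstream windows of 3 called genes that do not run into the annotated transcript, 1 that carries a match and rose, 1 that carries a match and fell, and 1 that rose with no match. All are written in the direction of transcription, with the match in capitals.
Wnt11 (chr7:98834862-98835111, plus strand): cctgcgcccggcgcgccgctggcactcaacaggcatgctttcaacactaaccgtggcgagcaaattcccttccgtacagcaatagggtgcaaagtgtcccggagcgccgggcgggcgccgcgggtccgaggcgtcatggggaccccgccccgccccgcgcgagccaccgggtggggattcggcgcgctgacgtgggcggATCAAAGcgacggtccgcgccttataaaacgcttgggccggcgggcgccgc
Fzd7 (chr1:59481897-59482146, plus strand): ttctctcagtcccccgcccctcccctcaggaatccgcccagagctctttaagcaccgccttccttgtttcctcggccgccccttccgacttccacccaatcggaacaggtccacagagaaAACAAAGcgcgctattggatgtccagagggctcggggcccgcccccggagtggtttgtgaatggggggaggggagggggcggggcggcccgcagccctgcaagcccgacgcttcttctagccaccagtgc
Nkd2 (chr13:73847632-73847881, minus strand): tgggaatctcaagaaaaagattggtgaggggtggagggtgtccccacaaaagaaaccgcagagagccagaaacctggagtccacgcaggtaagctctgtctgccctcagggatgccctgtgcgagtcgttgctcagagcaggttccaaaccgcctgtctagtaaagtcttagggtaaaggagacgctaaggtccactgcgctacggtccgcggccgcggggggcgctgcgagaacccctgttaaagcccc
The Wnt11 match is CTTTGAT on the strand opposite to transcription, 51 bases before the start. The Fzd7 match is CTTTGTT, also on the opposite strand, 130 bases before the start in the RefSeq promoter table. The Fzd7 window ends at 59482146, upstream of the annotated gene start at 59482424, so the match lies farther from that gene start. Both directions of change therefore occur with the word in this window. A match is a description of letters and does not show a bound site.

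Among the ligands, Wnt11, which is best known for signalling without β-catenin, was the most abundant and the only one called. It lies on chromosome 7 from 98835112 to 98855195 on the plus strand (GRCm38, GENCODE M21; ENSMUSG00000015957). Its values were 2.02, 2.90, 5.18 and 5.52 in WT replicates 1 to 4 and 7.51, 13.9 and 6.73 in Ngfr KO replicates 1 to 3. Every Ngfr KO sample lay above every WT sample, with Ngfr KO replicate 2 the highest. The log2 change was 1.09 (limma, SE 0.29, adjusted p = 0.0142) and 1.34 by edgeR (adjusted p = 0.0398). The limma adjusted p was 0.0730 without Ngfr KO replicate 2, 0.0778 without a filter on low values and 0.0571 without WT replicates 1 and 3. The edgeR call was lost without Ngfr KO replicate 1 or 2. Without WT replicate 1, WT replicate 2 or Ngfr KO replicate 3, edgeR called only 1 Wnt gene higher. Without WT replicate 3 it called 2 higher, of which Sfrp4 was 1. In each of these fits at least 1 of Wnt11 and Nkd2 was therefore not called. The FDC marker sums moved in the same direction, also among the WT samples, where replicate 1 was lowest and replicate 4 highest in both.

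The other ligands stayed low. Wnt5a, another ligand that signals without β-catenin, had values of 0.634, 1.35, 1.56 and 2.57 in WT and 1.89, 1.85 and 1.87 in Ngfr KO. The Ngfr KO samples lay within the WT range (log2 change 0.24, 95% confidence interval -0.24 to 0.71, limma adjusted p = 0.414). Wnt6 had 54 to 114 reads in WT and 150 to 232 in Ngfr KO, with values of 0.235 to 0.435 and 0.544 to 0.787. Its groups did not overlap, but edgeR did not call it (log2 change 1.19, adjusted p = 0.0614). Wnt5b, Wnt10a, Wnt4 and Wnt2 had values of at most 0.665 in any sample, with edgeR adjusted p from 0.180 to 0.946 and overlapping groups. Wnt2, Wnt2b, Wnt9a and Wnt9b had no reads in at least 1 library. Wnt9b was covered by 0, 5, 3 and 16 reads in WT and by 0 in each Ngfr KO library. There, 0 reads allow a value of up to 0.0102 to 0.0120 (3 reads, counting error only). The WT values of 0, 0.0187, 0.0130 and 0.0610 lay on both sides of that limit, and edgeR did not test the gene.

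Levels of different genes were compared after dividing each value by the gene's exon length in kb. On that scale Wnt11 made up 57.1% ± 4.8 of the summed Wnt ligand level in WT (SD, n = 4) against 73.4% ± 6.0 in Ngfr KO (SD, n = 3). Its share was 52.3% to 62.9% in WT against 67.2% to 79.2% in Ngfr KO. Wnt5a held 11.7% ± 2.8 and 8.44% ± 2.47, Wnt6 9.45% ± 3.08 and 10.6% ± 2.4. Wnt5b held 4.79% to 16.9% in WT against 2.90% to 5.85% in Ngfr KO. Wnt11 thus led the ligands in every sample, and the order of the others was not resolved: second came Wnt5b in WT replicate 1 (16.9%) and Wnt2 in WT replicate 3 (14.8%).

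The R-spondin genes expressed were Rspo3 and Rspo1. Rspo3 had values of 1.20, 2.26, 2.26 and 2.60 in WT and 3.55, 2.64 and 4.06 in Ngfr KO. There was no overlap, though the lowest Ngfr KO value was close to the highest WT value, and the gene missed the threshold (log2 change 0.53, SE 0.19, with limma adjusted p = 0.0516; edgeR adjusted p = 0.0806). The log2 change was 0.33 with the trend with length and GC content removed (limma adjusted p = 0.192) and 0.35 without WT replicates 1 and 3. An antisense gene, at a mean value of 0.195 in WT, shares exon sequence with Rspo3, and the labels describe no strand-specific counting. Rspo1 was lower, at 0.135 to 0.446 in WT against 0.200 to 0.315 in Ngfr KO, with overlapping groups (edgeR adjusted p = 0.890).

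Of the 11 receptor genes, 7 had every Ngfr KO sample below every WT sample (Fzd4, Fzd5, Fzd6, Fzd7, Fzd10, Lrp5 and Lrp6) and 1, Fzd3, had every sample above, where 13.1% and 12.5% of all genes did so. No test was run on the receptors as a class. Fzd6 and Fzd7 passed a test. The endothelial marker sums given above were lower in the same samples.

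Fzd6, a receptor that also acts in planar cell polarity, lies on chromosome 15 from 39006034 to 39038188 on the plus strand (ENSMUSG00000022297). Its values were 3.18, 1.86, 4.03 and 3.08 in WT and 1.10, 0.895 and 0.717 in Ngfr KO. The log2 change was -1.06 (limma, SE 0.19, adjusted p = 0.00191) and -1.67 by edgeR (adjusted p = 0.00797). Fzd6 was called under all 18 alternatives read for it, the limma settings that tested it and edgeR on all samples. Its exons overlap a low antisense RNA gene, at a mean value of 0.180 in WT. Fzd7, whose upstream window is shown above, lies on chromosome 1 from 59482424 to 59486955 on the plus strand (ENSMUSG00000041075). Its reads numbered 235, 126, 253 and 221 in WT and 42, 72 and 85 in Ngfr KO. The values were 0.914, 0.472, 1.10 and 0.843 against 0.152, 0.244 and 0.340, and the groups did not overlap. edgeR gave a log2 change of -1.70 (SE 0.43, adjusted p = 0.0265). The call was lost without WT replicate 1, Ngfr KO replicate 1 or Ngfr KO replicate 2, where edgeR adjusted p reached 0.0948.

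Fzd4, the receptor of norrin and of Wnt ligands on endothelium, had values of 1.57, 0.827, 1.68 and 0.904 in WT and 0.715, 0.590 and 0.496 in Ngfr KO. All Ngfr KO values were below the WT values, yet the adjusted p was above the threshold (edgeR log2 change -0.98, adjusted p = 0.0807). Fzd10 (0.416 to 0.809 in WT, 0.0882 to 0.312 in Ngfr KO) and Fzd5 (0.175 to 0.587 and 0.0160 to 0.163) likewise did not pass, with edgeR adjusted p of 0.0816 and 0.0954. Fzd3 was covered by at most 72 reads in a library and was not called (edgeR adjusted p = 0.283).

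Fzd1 had values of 3.64, 2.64, 2.15 and 1.30 in WT and 1.17, 1.22 and 1.75 in Ngfr KO. WT replicate 4 fell within the Ngfr KO range, and the log2 change of -0.49 was not called (limma adjusted p = 0.0903). Without WT replicate 4 it was -0.67 (limma adjusted p = 0.0197). Fzd8 overlapped widely, at 0.868 to 1.83 in WT against 0.667 to 2.03 in Ngfr KO, with a log2 change of -0.10 (95% confidence interval -0.57 to 0.37, limma adjusted p = 0.741) whose sign changed when single samples were left out.

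Summed per kb of exon, the Frizzled genes came to 2.04 ± 0.37 in WT (SD, n = 4) against 0.971 ± 0.187 in Ngfr KO (SD, n = 3), with ranges of 1.62 to 2.41 and 0.845 to 1.19. Fzd6 and Fzd1 held 30.6% ± 5.3 and 28.8% ± 11.3 of that sum in WT. In Ngfr KO, Fzd1 held 33.7% ± 1.8, Fzd6 20.1% ± 6.8 and Fzd8 19.1% ± 8.45. The order of Fzd6 and Fzd1 in WT, and of Fzd6 and Fzd8 in Ngfr KO, was not resolved beyond the spread between samples.

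The co-receptor genes were both lower in every Ngfr KO sample, without passing a test. Lrp6 had values of 2.81, 1.75, 2.62 and 1.70 in WT and 1.52, 1.41 and 1.45 in Ngfr KO, a log2 change of -0.37 (limma, SE 0.16, adjusted p = 0.0978). Like Apc it is a long gene, and with the trend with length and GC content removed the log2 change was -0.11 (limma adjusted p = 0.639), and -0.15 without WT replicates 1 and 3. Lrp5 was lower, at 0.191 to 0.400 in WT against 0.0480 to 0.131 in Ngfr KO (edgeR log2 change -1.67, adjusted p = 0.107).

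The secreted inhibitors differed in makeup between the groups. Sfrp1, which binds and sequesters Wnt ligands, had values of 1.55, 1.78, 0.608 and 1.67 in WT and 0.312, 0.410 and 0.164 in Ngfr KO. WT replicate 3 was the lowest WT sample but still above all Ngfr KO samples. The log2 change was -0.86 (limma, SE 0.19, adjusted p = 0.00604) and -2.16 by edgeR (adjusted p = 0.0145). Sfrp1 passed the limma filter through 3 WT samples alone, so limma did not test it without WT replicate 1, 2 or 4, and without that filter its limma adjusted p was 0.0436. It lies on chromosome 8 from 23411502 to 23449632 on the plus strand (ENSMUSG00000031548).

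Wif1, another Wnt-binding inhibitor, moved in the opposite direction. It lies on chromosome 10 from 121033960 to 121100650 on the plus strand (ENSMUSG00000020218). Its values were 0.0856, 0.213, 0.0782 and 0.809 in WT and 1.55, 1.53 and 1.11 in Ngfr KO. WT replicate 4 stood between the other WT samples and the Ngfr KO samples. The log2 change was 0.91 (limma, SE 0.19, adjusted p = 0.00406), while edgeR, with a log2 change of 2.30, did not call it (adjusted p = 0.0537). Wif1 passed the limma filter through the 3 Ngfr KO samples alone, and without that filter the limma adjusted p was 0.0334. The sum of reticular stroma markers was 98.8 to 111 in WT replicates 1 to 3, 233 in WT replicate 4 and 259 to 372 in Ngfr KO. Of 10 such markers tested, limma called 4 higher and 1 lower. Different genes carried the sum: Ccl21a, also on the lymphatic endothelial list, was 73.5 in WT replicate 4, 6.81 to 16.9 in the other WT samples and 3.26 to 19.7 in Ngfr KO, whereas Dcn was 69.3 in WT replicate 4, 37.5 to 44.9 in the other WT samples and 151 to 248 in Ngfr KO.

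Sfrp4 was close to absent in WT, with 2, 0, 0 and 13 reads, and had 128, 52 and 82 reads in Ngfr KO. It lies on chromosome 13 from 19623104 to 19632994 on the plus strand (ENSMUSG00000021319). Its values were 0.00778, 0, 0 and 0.0496 in WT and 0.464, 0.176 and 0.328 in Ngfr KO. The edgeR log2 change of 4.49 (SE 1.25, adjusted p = 0.0372) depends on the prior count at such low reads, and the call was lost when any of 5 libraries was left out, all but WT replicates 3 and 4. Dkk3, a divergent Dickkopf family gene, had values of 0.206, 0.240, 0.0304 and 0.660 in WT and 0.834, 0.746 and 0.721 in Ngfr KO. WT replicate 4 again lay nearest to the Ngfr KO samples, and edgeR did not call the gene (adjusted p = 0.180). Dkk2, a co-receptor antagonist, had 0.988, 0.464, 1.00 and 0.721 in WT and 0.134, 0.512 and 0.00400 in Ngfr KO, with 1 pair of samples overlapping (edgeR adjusted p = 0.232). Dkk1 had at most 5 reads in a library, and Sfrp2 ranged from 0 to 106 reads without separating the groups.

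Per kb of exon, Sfrp1 and Dkk2 held 41.5% and 31.8% of the summed inhibitor level in WT on average (ranges 30.7% to 58.8% and 16.8% to 59.8%, n = 4). In Ngfr KO they held 6.11% and 5.07% (ranges 4.48% to 8.32% and 0.129% to 12.3%, n = 3). Wif1 went the other way, from 13.2% (4.29% to 28.8%) to 53.3% (49.6% to 55.9%), and Dkk3 from 9.19% (2.00% to 17.0%) to 21.5% (19.3% to 25.6%). The ranges did not overlap for Sfrp1, Dkk2, Wif1, Dkk3 and Sfrp4. The sum itself overlapped between the groups, at 0.453 to 1.16 in WT against 0.839 to 1.29 in Ngfr KO.

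**Figure D3:**
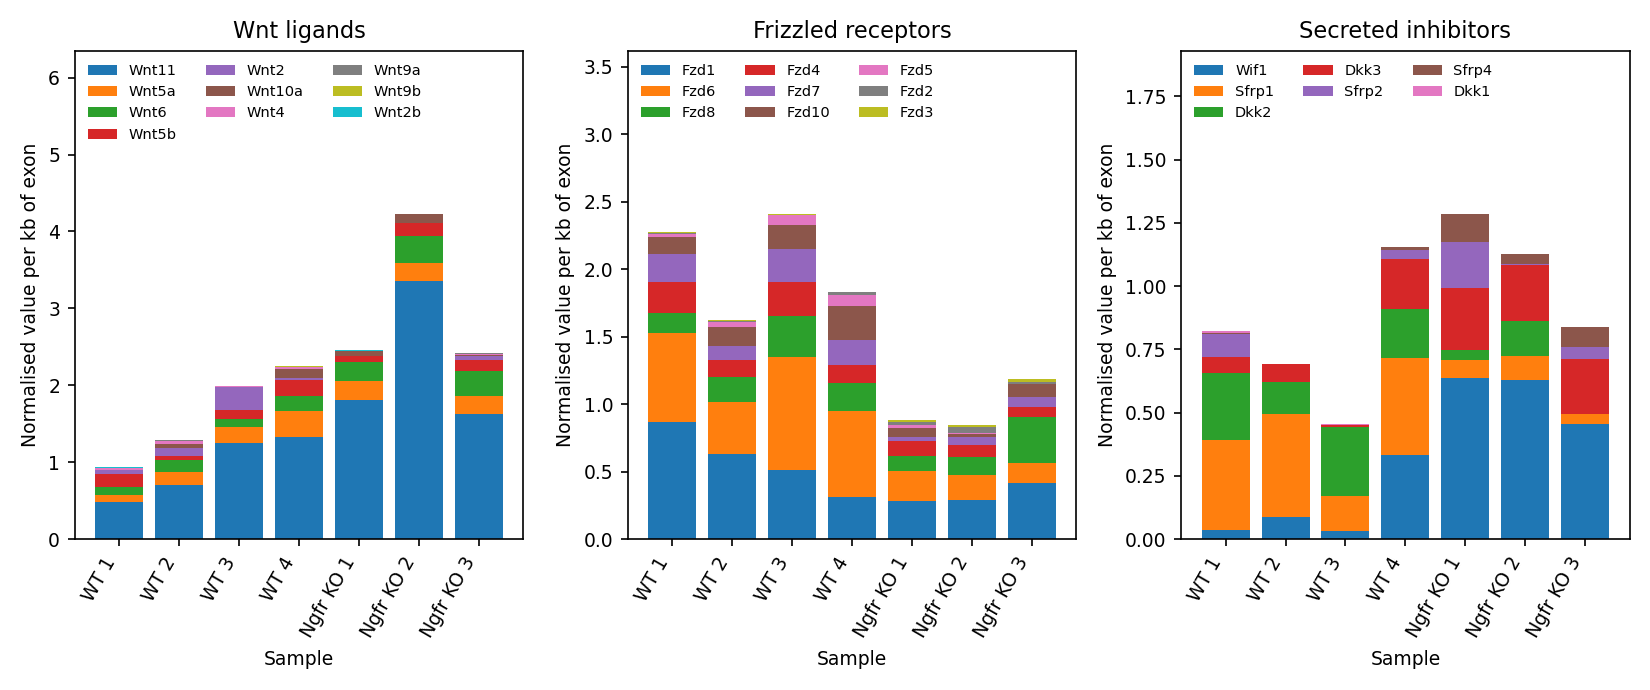
Normalised value per kb of exon, stacked by gene for each sample, for the Wnt ligands, the Frizzled receptors and the secreted inhibitors. Wnt11 is the tallest ligand segment in every sample, the Frizzled stacks reach 1.62 to 2.41 in WT against 0.845 to 1.19 in Ngfr KO, and Wif1 takes 49.6% to 55.9% of each Ngfr KO inhibitor stack.

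Inside the cell, the β-catenin gene and a gene of its destruction complex were both lower. Apc, the scaffold of that complex, lies on chromosome 18 from 34220924 to 34322552 on the plus strand (ENSMUSG00000005871). It had values of 16.5, 14.2, 12.5 and 9.86 in WT and 5.97, 4.57 and 4.63 in Ngfr KO. Every WT sample was higher than every Ngfr KO sample, and the log2 change was -1.22 (limma, SE 0.19, adjusted p = 0.0010; edgeR adjusted p = 0.00645). Apc has the most exon sequence of the 40 genes, 16116 bases, and long genes fell more often: in the longest of 5 equal bins of exon length, from 8132 bases, the median log2 change was -0.22 and 26.8% of genes were called lower, against 0.17 and 10.6% in the shortest. With each sample's trend with length and GC content removed, Apc was still called lower.

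Ctnnb1, the gene of β-catenin, was the most abundant of the 40 per kb in WT, at 2.40 ± 0.69 (SD, n = 4), and followed Wnt11 in Ngfr KO, at 1.46 ± 0.15 (SD, n = 3) against 2.26 ± 0.95. Its values were 17.5, 8.93, 11.7 and 11.7 in WT and 8.46, 7.24 and 6.98 in Ngfr KO. The gene lies on chromosome 9 from 120929216 to 120960507 on the plus strand (ENSMUSG00000006932). WT replicate 1 was far above the other WT samples, and WT replicate 2 was close to Ngfr KO replicate 1. The log2 change of -0.62 (limma, SE 0.21, adjusted p = 0.0361) was not called by edgeR (adjusted p = 0.0897) or without any 1 of 6 of the 7 libraries, WT replicate 2 being the exception. Its exons overlap those of Ulk4 on the other strand, whose mean value was 4.62 in WT and 2.74 in Ngfr KO. Axin1, the limiting scaffold, had 0.763 to 1.38 in WT against 0.923 to 1.39 in Ngfr KO. Its log2 change was -0.04 (95% confidence interval -0.38 to 0.30, limma adjusted p = 0.859).

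Tcf7l1 encodes the TCF factor that mostly represses Wnt target genes. It lies on chromosome 6 from 72626378 to 72789254 on the minus strand (ENSMUSG00000055799). Its values were 2.42, 1.93, 2.74 and 1.52 in WT and 0.606, 0.699 and 0.517 in Ngfr KO, so that all WT samples were above all Ngfr KO samples. The log2 change was -0.96 (limma, SE 0.16, adjusted p = 0.00152) and -1.75 by edgeR (adjusted p = 0.00617). Tcf7l1 passed the limma filter through the WT samples alone, and without that filter its limma adjusted p was 0.0161. Tcf7l2, at 0.429 per kb against 0.155 for Tcf7l1 in Ngfr KO and at 0.437 ± 0.092 against 0.548 ± 0.137 in WT (SD, n = 4), where their order was not resolved, overlapped between groups at 2.89 to 4.78 in WT against 2.71 to 4.96 in Ngfr KO (log2 change -0.03, 95% confidence interval -0.46 to 0.39, limma adjusted p = 0.906). Lef1 was at most 0.619 in any sample and did not separate the groups (edgeR adjusted p = 0.898). It is also a T-cell gene. The T-cell markers, a list that includes Lef1 itself, summed to 2.98 to 11.8 in WT against 4.62 to 10.3 in Ngfr KO.

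The feedback genes differed from each other. Nkd2, a Dishevelled-binding inhibitor, rose: its values were 0.506, 1.57, 1.04 and 1.45 in WT and 2.68, 2.75 and 2.22 in Ngfr KO. It lies on chromosome 13 from 73818534 to 73847631 on the minus strand (ENSMUSG00000021567). The groups were apart, with a log2 change of 0.76 (limma, SE 0.19, adjusted p = 0.0102, and edgeR adjusted p = 0.0395). The limma adjusted p was, however, 0.0516 without a filter and 0.0678 without WT replicates 1 and 3. The edgeR call of Nkd2 was lost without Ngfr KO replicate 1 or 2. Leaving out other libraries ended the edgeR call of Nkd2, of Wnt11 or of both, as given for Wnt11. Axin2, the feedback gene most often read as a sign of β-catenin activity, had 98, 164, 130 and 143 reads in WT and 33, 40 and 102 in Ngfr KO. Its values were 0.381, 0.614, 0.565 and 0.545 against 0.120, 0.136 and 0.408. Ngfr KO replicate 3 lay above WT replicate 1, and edgeR did not call it (log2 change -1.21, adjusted p = 0.139). Nkd1 and the ligase gene Znrf3 stayed at or below 0.336 in all samples with overlapping groups (edgeR adjusted p = 0.945 and 0.839).

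Other genes of the pathway were taken from a list of 89 symbols, of which 79 were in the table and 35 were tested by limma. Of these, 6 rose and 8 fell (40.0%, near the 34.2% of all genes), with a median log2 change of -0.04. Among 12 genes for Tcf7 and for transcriptional partners and repressors of the TCF factors, limma tested 6. It called 4 lower and 1 higher, where 15.8% of all genes were lower. Of these 4, Sox7 and Bcl9l passed the limma filter through WT samples alone, so this count depends in part on their own change. The share called, 83.3%, was also the highest of the pathway lists. edgeR tested all 12 and called 3 lower, where 6.55% of all genes were lower. The lower calls of both tests included Sox7, a gene of endothelial cells described below. Among them Tle4 fell from 2.42 ± 0.16 (SD, n = 4) to 1.11 ± 0.17 (SD, n = 3), and Tle1 from 3.22 ± 0.31 to 1.72 ± 0.47; both encode Groucho-type co-repressors. Their log2 changes were -0.70 (limma, SE 0.14, adjusted p = 0.00330) and -0.64 (limma, SE 0.16, adjusted p = 0.00996).

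Sox7, which encodes a transcription factor of endothelial cells, fell from 2.10 ± 0.85 to 0.553 ± 0.178 (log2 change -0.96, SE 0.21, with limma adjusted p = 0.00548). It passed the limma filter through WT samples alone. edgeR, which does not use that filter, also called Sox7 lower (adjusted p = 0.0135). Reck, a membrane protein of the Wnt7 receptor complex, fell from 2.50 ± 0.58 to 1.18 ± 0.47, and the tankyrase gene Tnks2 from 4.44 ± 0.78 to 2.67 ± 0.69 (limma adjusted p = 0.0149 and 0.0268). edgeR called neither (adjusted p = 0.0533 and 0.0708). The endothelial marker sums given above fell in the same samples. limma called Sox9, Msx1, Hbp1, Fuz and Btrc higher, of which edgeR did not call Sox9 (adjusted p = 0.0858) or Hbp1 (adjusted p = 0.0512). Fuz passed the limma filter through Ngfr KO samples alone. The homeobox gene Msx1 rose from 0.650 ± 0.376 to 2.14 ± 0.29 (log2 change 0.95, SE 0.18, with limma adjusted p = 0.00263). Sox9, which is also on the FDC marker list, rose from 2.34 ± 1.41 to 5.61 ± 0.94 (log2 change 1.09, SE 0.31, with limma adjusted p = 0.0181). Btrc, which encodes a ubiquitin ligase subunit that recognises β-catenin, rose from 2.06 ± 0.28 to 3.82 ± 1.12 (limma adjusted p = 0.0169).

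Of 8 tested genes listed as Wnt targets, limma called 3 higher, Sox9, Msx1 and Tnfrsf19, and 0 lower, and no other had an unadjusted p under 0.05. That is 37.5%, near the 34.2% of all genes. edgeR called 2 of 14 listed targets, both higher (14.3%, near its 15.2% of all genes). Wls, the carrier that releases Wnt ligands from cells, was expressed at 10.8 ± 1.3 in WT and 11.8 ± 2.2 in Ngfr KO and was not called (log2 change 0.11, limma adjusted p = 0.634).

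**Figure D4:**
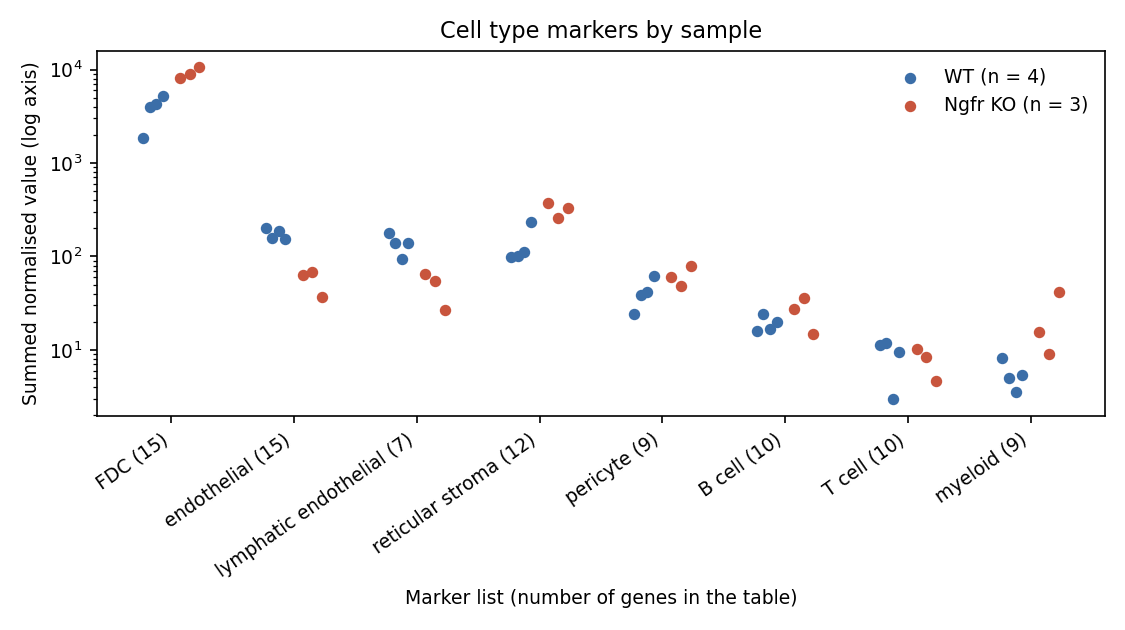
Summed normalised values (log axis) of 8 cell type marker lists in each sample, WT in blue (n = 4) and Ngfr KO in red (n = 3). FDC and reticular stroma sums are higher and endothelial and lymphatic endothelial sums lower in all Ngfr KO samples, and the T-cell and B-cell sums overlap.

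Other marker lists stood as follows. Lymphatic endothelial markers summed to 93.1 to 176 in WT against 26.7 to 65.1 in Ngfr KO, and 5 of 7 tested fell. Pericyte markers overlapped, at 24.4 to 61.7 and 47.9 to 80.0, with 3 of 6 higher. B-cell markers overlapped, at 15.9 to 24.1 and 14.6 to 35.7, with 1 of 6 higher. Of the T-cell markers limma called 0 of 5, with 0 at an unadjusted p under 0.05, and edgeR called 0 of 10. Myeloid markers summed to 9.05 to 41.8 in Ngfr KO against 3.58 to 8.28, carried by Lyz2 and Cd14, the 2 that limma tested and called. Of 6 myeloid markers edgeR called 1 higher and 1 lower, and C1qb had a mean value of 0.00121 in Ngfr KO and 0.116 in WT. No listed marker in the table was at 0 in all samples of a group. Their part in the Wnt gene results was not tested.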

How the data were processed

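The deposited data are a single table of normalised signal, named TMM (trimmed mean of M values) in its title, with a row per gene and a column for each of 4 WT and 3 Ngfr KO samples. Per the labels' protocols, SMART-Seq v4 cDNA was turned into Nextera XT libraries. Per the submitters' processing notes, bcl2fastq 2.20.0.422 and build mm10 were used. Aligner, counter, annotation and TMM software are not given in the sources used here. Within a sample, 100% of values are whole multiples of 1 step (tolerance 0.05 reads), so dividing by it recovered the reads. Gene length was not divided out. The lowest sum of reads per gene was 3. Reads carry no stated molecular identifiers, so floors cover counting error only. Nothing says that the pools came from separate cohorts, and p-values then measure only the spread between these samples, which may be technical.

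Ngfr KO was compared with WT by limma 3.58.1 in R 4.3.3 (eBayes with trend) on log2(value + 1), over all genes that reached a value of 1 in 3 or more samples, and by edgeR 4.0.16 (quasi-likelihood, filterByExpr, TMM) on the recovered reads, both with Benjamini-Hochberg adjustment over all genes tested. log2 changes are from limma unless edgeR is named. The SE of an edgeR change is its size divided by the square root of the F statistic. Coordinates and exon lengths came from GENCODE M21 (GRCm38) by identifier, matching 21137 of 21176. On simulated data, limma recovered 96.5% of 200 genes changed 4-fold among 8164 genes tested and edgeR 100% among 16905. The 200 genes were drawn from those with a mean value of at least 1, and 1 set spread between samples was used for all genes. Recovery of lower or more variable genes was therefore not measured. The genes and lists were chosen with earlier results of these data known. Named are all Wnt genes past the limma filter or called by either test and, of the pathway list, the 5 called genes with the largest change in each direction; other genes were named after their values were seen. Alternatives covered pseudocounts, filters, scaling, eBayes settings, the replicate number as a block, edgeR and leaving out samples.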

Additional observations from a re-analysis of the deposited data

Results flagged for a closer look

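Each of the 40 Wnt genes was searched for a WT sample standing far from the other 3, with its gap to the closest one taken as a share of the range of all 4 on the log2(value + 1) scale. Dixon's 95% critical value was passed in 3 genes, and 2 would pass by chance (1 in 20). Sfrp1 was 0.608 in WT replicate 3 against 1.55 to 1.78 in the other WT samples (gap 0.845 of the range). Nkd1 was 0.265 in WT replicate 3 against 0.0389 to 0.0674 (0.863). Sfrp4 was 0.0496 in WT replicate 4 against 0 to 0.00778 (0.840). WT replicate 3 had the fewest genes above 0, 17771 against 18631 to 20047 in the other WT samples.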

How the results depend on the processing

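The count of 8 Wnt genes called by limma was 15 (of 34 tested, 6 higher and 9 lower; 22% of all genes were called) with a filter at a value of 0.1, which added Wnt6, Dkk3 and Sfrp4 as higher and Fzd5, Fzd7, Fzd10 and Dkk2 as lower. It was 2 (of 2 tested) with a filter at 10, where fewer genes are tested, and 3 when WT replicates 1 and 3 were both left out, an alternative chosen after seeing the data, as were the length and GC trend and the settings of edgeR. Those 2 settings gave 535 and 1410 calls over all genes (2844 as reported), and 0 and 5 for the pathway list (14 as reported). For the 5 pathway genes tested at a filter of 10, limma called 0. Leaving out 1 sample at a time gave 1614 to 3006 calls over all genes, 6 to 8 Wnt genes by limma, 4 to 12 by edgeR (8 as reported) and 6 to 14 for the pathway list. The fewest came without Ngfr KO replicate 2 over all genes and for the pathway list (1614 and 6); edgeR called 5 Wnt genes without WT replicate 1, and 4, all lower, without either replicate 1 or replicate 2 of Ngfr KO. The causes were not tested.

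Apc, Fzd6, Sfrp1 and Tcf7l1 stayed called and lower under every limma alternative that tested them and by edgeR on all samples. The further edgeR alternatives were not read for these genes. Sfrp1 and Tcf7l1 passed the limma filter through WT samples alone, so the alternatives in which they were tested depend on their own change. Signs turned only for uncalled genes: the log2 change of Axin1 was 0.0137 with quantile normalization and -0.136 to 0.0206 with 1 sample left out, that of Fzd8 -0.366 to 0.0649 with 1 sample left out, that of Tcf7l2 0.126 with the length and GC trend removed, 0.0289 by edgeR and -0.209 to 0.134 with 1 sample left out, and that of Wnt5a -0.0147 without WT replicates 1 and 3. Same-numbered WT and Ngfr KO samples deviated from their group means with correlations of 0.298, -0.0593 and -0.0108, and not every sample correlated best with its own number, so they share only a number. With the replicate block, in which WT replicate 4 adds nothing to the comparison, limma called 2717 genes, 10 Wnt genes and 15 pathway genes, edgeR called 9 Wnt genes, and the log2 change of Tcf7l2 was 0.0570. The block ended the edgeR call of Fzd7 (adjusted p = 0.0635).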

Other observations

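Of the pathway genes outside the set, the norrin gene Ndp, which encodes a ligand of Fzd4, had 0 reads in all 4 WT libraries and 39, 29 and 12 reads in the Ngfr KO libraries. Its Ngfr KO values were 0.141, 0.0984 and 0.0480, and 0 reads allow a WT value of up to 0.0112 to 0.0130 (3 reads, counting error only). edgeR called it higher (adjusted p = 0.0188). Adgra2, the partner of Reck in Wnt7 reception by endothelium, had 84, 82, 75 and 172 reads in WT and 23, 14 and 17 in Ngfr KO, and edgeR called it lower (log2 change -2.54, SE 0.59, adjusted p = 0.0184). Porcn, which attaches the lipid to Wnt ligands, had values of 0.214 to 0.678 in WT against 0.553 to 1.08 in Ngfr KO, with overlapping groups (edgeR adjusted p = 0.0886). These 3 genes were chosen after their values were seen.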
